A study of Homo sapiens with 6 samples.

Results

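MYB, SPI1, IRF8, CEBPA, CEBPB, RUNX1, RUNX2, RUNX3, GFI1 and MEIS1 encode transcription factors of the blood-forming and myeloid lineages, and their mRNAs were followed in cells labelled as a breast cancer line. The 10 genes were found by symbol among the 32322 gene rows of the deposited table. They had been chosen by their levels, the deposited normalized counts, which the rule describes as high despite the label, so the levels are given here as a description, with no test. The rule names levels and not the comparison of compound 28 with DMSO, but the genes were chosen with earlier results of these data known. All 10 passed the filter on low counts, as did 18278 genes in all.

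RNA came from cells titled MDA-MB-231, an adherent line of triple-negative breast cancer labelled wild type, which were exposed to 500 nM of compound 28 for 4 h (3 libraries) or to DMSO, the solvent control, for which no separate time is given (3 libraries). The series title calls compound 28 a degrader of CDK9, the kinase that releases paused RNA polymerase II. The cell line field counts upward by 1 with each sample, ending at MDA-MB-236, and so conflicts with the titles, which are followed. The labels do not say whether replicates came from separate cultures, so that p-values cover only the spread among these libraries, which may be technical.

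Blood cell fate is set by a small network of such factors that bind one another's genes. SPI1 encodes PU.1, an ETS factor that drives the monocytic and granulocytic programmes, and IRF8 steers progenitors towards monocytes and dendritic cells, often bound to DNA together with PU.1. The C/EBP factors turn on granulocyte genes, GFI1 represses monocytic genes in favour of granulocytes, the RUNX factors bind DNA with the shared partner CBFB, and MYB and MEIS1 sustain immature and leukaemic progenitors. In bulk RNA, fewer cells of a type and less RNA per cell cannot be told apart.

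Most mRNAs of a list of mammary epithelial markers were at or near 0. Of 18 mammary epithelial markers, 16 had rows, and 8 of these stayed below 10 normalized counts in every library (EPCAM, CDH1, KRT5, KRT7, KRT14, PGR, GATA3 and GRHL2). KRT8 was the most abundant, at 244 to 314 normalized counts in DMSO. The mammary markers summed to 532 to 617 normalized counts in DMSO and 756 to 792 in compound 28. Leukocyte markers without SPI1, 9 genes, summed to 116018 to 140279 in DMSO and to 170459 to 186573 in compound 28. Among them PTPRC, which encodes CD45, the surface phosphatase of leukocytes, stood at 2691, 3178 and 4387 normalized counts in DMSO. Mesenchymal markers of the named line summed to 16999 to 17216 normalized counts in DMSO and 15739 to 16612 in compound 28, where VIM and CD44 were abundant and CAV1 and MET stayed below 10. B cell markers summed to at most 419 normalized counts. T and NK cell markers summed to 10210 to 11946 in DMSO and 20194 to 24543 in compound 28, most of it CD4, which monocytes also carry, while CD3E and CD3G stayed below 10. The leukocyte values go against the label, and the title's name is used below without being taken as settled. The mammary list holds the receptor genes ESR1, PGR and ERBB2 as well as epithelial genes. How many of its genes a triple-negative line should express was not tested. Gene-assigned reads ran from 37186728 to 54830987 per DMSO library and from 28505897 to 34062330 per compound 28 library. Pearson's r on log2(normalized count + 1), over genes at a mean of at least 10 CPM and the 10 factors, was at least 0.974 within groups and at most 0.799 between them. A normalized count here is a gene's reads divided by 1 size factor per library, as the authors deposited it.

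Per kilobase of annotated exon, SPI1 had the highest level of the 10 in DMSO, at 4373 ± 399 normalized counts per kilobase (SD, n = 3), above IRF8 (3578 ± 467), MYB (3072 ± 164), GFI1 (2563 ± 168) and CEBPB (1758 ± 290). RUNX3 (802 ± 113) and RUNX1 (774 ± 97.1) followed and overlapped each other, and RUNX2 (553 ± 36.6), MEIS1 (343 ± 8.85) and CEBPA (118 ± 4.23) came last. The other neighbours in this order did not overlap between libraries. The median of 17728 tested genes with a length was 98.1 per kilobase, and SPI1, IRF8, MYB, GFI1 and CEBPB all stood above the 95th percentile (95.8 to 98.7), while CEBPA stood at percentile 53.6. Lengths are the union of all GENCODE exons, which for RUNX1 came to 15574 bases, and a long union lowers a level per kilobase.

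After compound 28 the order changed. SPI1 (2613 ± 227), IRF8 (2354 ± 43.5) and MYB (2075 ± 139) still had the highest levels per kilobase, but RUNX1 (1926 ± 114) now overlapped MYB and RUNX2 (872 ± 28.1) overlapped GFI1 (831 ± 140). CEBPB (282 ± 37.3), RUNX3 (204 ± 10.8), MEIS1 (65.4 ± 5.51) and CEBPA (27.6 ± 4.80) closed the order. CEBPA then stood at percentile 28.9 of the tested genes and SPI1 at 96.6.

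Compound 28 was compared with DMSO to ask how mRNAs of these factors differ after 4 h with the compound. RUNX1 and RUNX2 rose and the other 8 factors fell (adjusted p under 0.05, limma-trend with Benjamini-Hochberg adjustment over all 18278 genes). Calls were frequent everywhere, with 35.5% of all genes higher, 37.3% lower and 72.8% called in either direction, so a call alone does not set these genes apart. The median log2 change of the 10 factors was -1.19, against -0.03 for all genes tested. Of the 8 that fell, 5 fell at least 2-fold, as did 23.1% of all genes. The groups did not overlap for any of the 10, as for 75.7% of all genes (36.9% higher and 38.9% lower). Over the same libraries, the 9 leukocyte markers other than SPI1 went in both directions in the authors' normalization, 5 higher and 1 lower. With SPI1 included, the 10 leukocyte markers had 3 higher and 4 lower with library sizes only. With mitochondrial mRNA scaling 0 were higher and 9 lower. The mesenchymal markers had 4 of 11 tested higher and 3 lower (2 and 6 with library sizes only, 1 and 10 with mitochondrial mRNA scaling). Of 6 tested mammary markers 4 were lower, although their sum was larger in compound 28. The 2 higher ones were KRT8 and ELF3, the latter with means of 6.74 and 229 normalized counts. All 4 tested T and NK cell markers were higher (2 with library sizes only, 0 with mitochondrial mRNA scaling). Each of the 13 mRNAs encoded by mitochondrial DNA was called higher, with a median log2 change of 1.45. Reads that the counter gave to no gene made up 30.4% to 32.8% of each DMSO library against 40.4% to 46.9% with the compound. The part of these in the result was not tested.

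**Figure D1:**
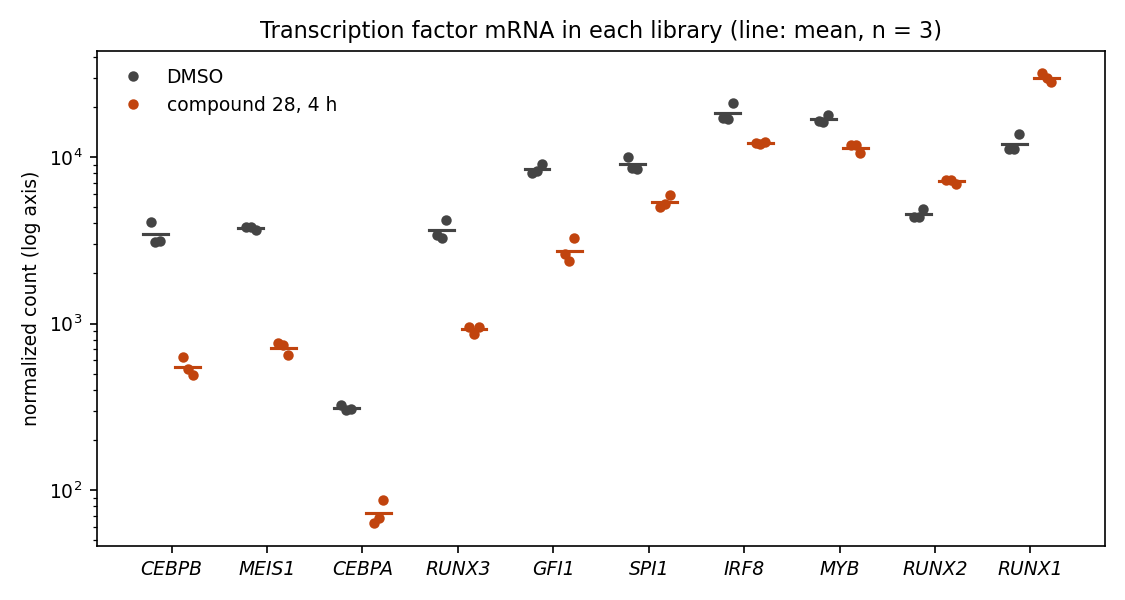
Normalized count on a log axis of each of the 10 factors in the 3 DMSO libraries (grey) and the 3 compound 28 libraries (red), with a line at each mean, ordered by log2 change. The red points lie below the grey ones for 8 genes, from CEBPB to MYB, and above them for RUNX2 and RUNX1.

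CEBPB and CEBPA, basic leucine zipper factors of the C/EBP family, lost most of their mRNA. CEBPB, which takes over in emergency granulocyte production and in inflammation, stood at 4093, 3094 and 3128 normalized counts in DMSO and at 632, 532 and 490 in compound 28. Its groups lay far apart, with DMSO replicate 1 the highest library. The log2 change of -2.63 ± 0.14 (SE, 95% interval -2.94 to -2.33, adjusted p = 1.1e-07, limma) was the largest fall of the 10 and stood at percentile 5.32 of all tested genes. CEBPA, the factor without which granulocytes do not form, was the least abundant, at 324, 303 and 308 normalized counts in DMSO and 63.2, 67.9 and 87.0 in compound 28. Its compound 28 libraries rested on 153 reads in all, against 1385 in DMSO, and its interval was the widest of the 10. CEBPA fell 4.28-fold (log2 change -2.10, 95% interval -2.52 to -1.68, adjusted p = 3.6e-06, limma).

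The ratio of CEBPA to CEBPB per kilobase, which no scaling between libraries can alter, was 0.0589, 0.0728 and 0.0731 in DMSO and 0.0743, 0.0949 and 0.132 in compound 28. The groups were next to each other without overlap, and an exact two-sided permutation test gave p = 0.1, the smallest that 3 against 3 libraries allow and the same after adjustment over the 7 ratios computed. Antisense RNAs named after these genes were measured as well. CEBPA-AS1 went from 999, 956 and 825 normalized counts to 48.5, 42.8 and 60.6 (log2 change -4.18, adjusted p = 4.5e-08, limma), against -2.10 for CEBPA. CEBPB-AS1 had a log2 change of -0.77 that did not pass (adjusted p = 0.051, limma). The strand setting of the counting was not given in the sources used here, so reads of a gene and of an antisense partner that overlaps it cannot be told apart. CEBPB-AS1 overlaps CEBPB in GENCODE and held 59.5 normalized counts on average in DMSO, against 3438 for CEBPB.

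The bases upstream of the C/EBP starts are shown because the window given for each gene holds the letters TATAAA. They are the 250 bases before the RefSeq start (GRCh38.p14), written 5′ to 3′ on the strand of the gene in lower case, with motif matches in capitals. CEBPA lies on the minus strand at chr19:33302535-33302784. CEBPB lies on the plus strand, and the window of its downstream RefSeq start at chr20:50190580-50190829 is given. The window of its other start, not printed, held 0 motif matches.
CEBPA: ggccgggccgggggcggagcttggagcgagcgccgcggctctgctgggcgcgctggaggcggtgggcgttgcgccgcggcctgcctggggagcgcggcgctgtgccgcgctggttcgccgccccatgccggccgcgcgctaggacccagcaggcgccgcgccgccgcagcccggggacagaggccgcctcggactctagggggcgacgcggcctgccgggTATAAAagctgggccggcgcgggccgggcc
CEBPB: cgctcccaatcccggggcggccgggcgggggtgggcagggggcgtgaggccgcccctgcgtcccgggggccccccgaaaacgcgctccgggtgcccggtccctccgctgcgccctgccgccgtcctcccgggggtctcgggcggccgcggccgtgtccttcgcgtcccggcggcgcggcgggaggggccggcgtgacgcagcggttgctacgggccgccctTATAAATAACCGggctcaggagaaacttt
The letters TATAAA begin 30 bases before the start in CEBPA and 29 bases before it in CEBPB, where TAACCG, a match to the MYB motif, follows directly. TATAAA on either strand was held by 10.72% of all 35116 RefSeq windows of this length, and by no other window of the 9 factors that matched the RefSeq table (15 windows). The base composition was 81.2% and 77.6% G and C, against a median of 58.0% over all windows. A match is a description of letters, not of a bound site, and its part in the change of either gene was not tested.

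MEIS1, the TALE homeodomain factor that binds DNA with HOX and PBX proteins and is known as a driver of leukaemia, had the most even DMSO values of the 10, at 3792, 3819 and 3639 normalized counts. It stood at 759, 740 and 647 in compound 28, so the groups were separated by a wide gap. The fall was 5.25-fold (log2 change -2.39, 95% interval -2.60 to -2.18, adjusted p = 3.4e-08, limma), and the adjusted p was the lowest of the 10. HOXA9, the homeobox partner with which MEIS1 acts in leukaemia, moved the other way, from 1964, 1900 and 1819 to 3020, 2723 and 2865 normalized counts (log2 change 0.60, adjusted p = 9.1e-05, limma). That call of HOXA9 was lost with library sizes only (0.14) and turned to lower when libraries were scaled on mitochondrially encoded mRNAs (-0.86). Within each library MEIS1 per kilobase was 0.535, 0.557 and 0.554 of HOXA9 in DMSO and 0.0697, 0.0752 and 0.0625 in compound 28, a 7.93-fold lower ratio (exact permutation p = 0.1, the smallest possible). MEIS2, a relative of MEIS1, fell with a log2 change of -2.69, and PKNOX1, another TALE factor, rose (1.22), though not under mitochondrial scaling (-0.23).

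The 3 RUNX genes encode the DNA-binding subunits of core-binding factors and did not move together. RUNX1, needed for the first blood stem cells, was at 11233, 11135 and 13803 normalized counts in DMSO and at 31906, 29707 and 28381 in compound 28. All 3 compound 28 libraries lay far above the highest DMSO library. RUNX1 rose 2.50-fold (log2 change 1.32, 95% interval 1.09 to 1.55, adjusted p = 1.5e-06, limma). RUNX2, best known from bone formation, went from 4369, 4349 and 4877 to 7303, 7248 and 6879 normalized counts (1.58-fold, log2 change 0.66, 95% interval 0.47 to 0.84, adjusted p = 3.8e-05, limma). RUNX3, the relative with roles in lymphocytes, fell from 3426, 3248 and 4206 to 952, 868 and 953 normalized counts (3.90-fold, log2 change -1.96, 95% interval -2.21 to -1.72, adjusted p = 1.7e-07, limma).

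The rises of RUNX1 and RUNX2 depended on the scaling, whereas the unequal change of the 3 genes did not. When libraries were scaled on mitochondrially encoded mRNAs, RUNX1 had a log2 change of -0.14 that did not pass and RUNX2 was lower (-0.80), and with library sizes only they were higher by 0.87 and 0.20. The ratio of RUNX1 to RUNX3 per kilobase was 0.952, 0.996 and 0.953 in DMSO and 9.73, 9.94 and 8.65 in compound 28. This was a 9.76-fold difference with no overlap (exact permutation p = 0.1, the smallest possible). RUNX2 over RUNX3 differed 6.16-fold and RUNX1 over RUNX2 1.58-fold, each without overlap and with the same p. RUNX1 took 36.3% ± 0.455 of the summed RUNX signal per kilobase in DMSO and 64.1% ± 0.814 in compound 28 (SD, n = 3). RUNX3 took 37.6% ± 1.00 and 6.81% ± 0.466.

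**Figure D2:**
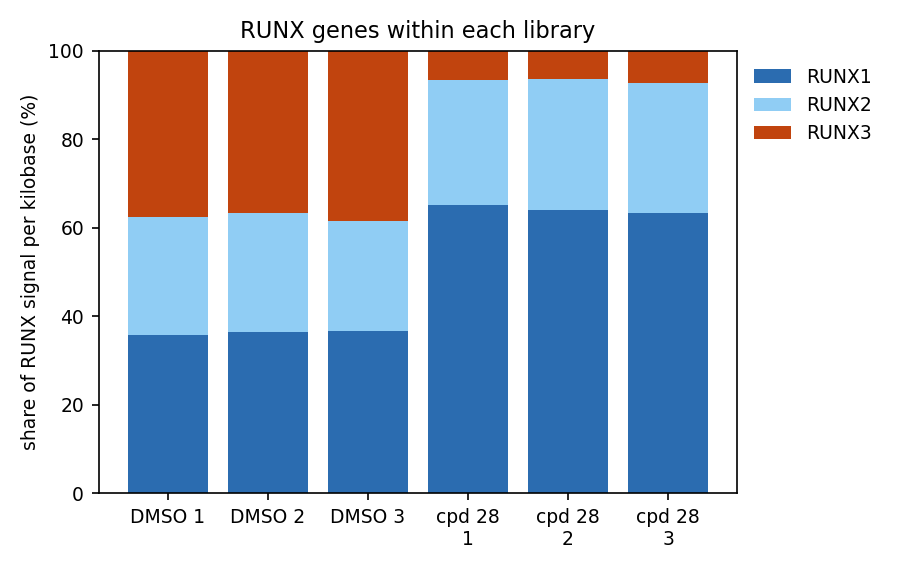
Share of RUNX1, RUNX2 and RUNX3 in their summed normalized count per kilobase (percent) in each of the 6 libraries, as stacked bars from 0 to 100. The RUNX3 band shrinks from a mean of 37.6% in DMSO to 6.81% in compound 28, while the RUNX1 band widens from 36.3% to 64.1%.

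CBFB, the partner that all 3 RUNX proteins need to bind DNA firmly, was at 3273, 3210 and 3777 normalized counts in DMSO and at 5814, 5284 and 5498 in compound 28 (log2 change 0.70, adjusted p = 5.0e-05, limma; lower with mitochondrial scaling, at -0.76). RUNX1 over CBFB per kilobase was 1.54-fold higher in compound 28 without overlap (exact permutation p = 0.1). TLE1, TLE3 and TLE4, Groucho-family corepressors that bind RUNX proteins, fell with log2 changes of -2.64, -3.15 and -1.95. The corepressor CBFA2T3 fell with -0.53, and RUNX1T1 had at most 1.55 normalized counts in any library.

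Upstream windows of the RUNX genes are shown because 2 of the windows hold the letters that RUNX proteins themselves bind. They are written as for the C/EBP genes. RUNX1 lies on the minus strand and its RefSeq window is chr21:34888700-34888949. For RUNX2 (plus strand, chr6:45328080-45328329) and RUNX3 (minus strand, chr1:24965011-24965260) the window of the start farther upstream is given. The window of the other start, not printed, held 0 motif matches in RUNX2. In RUNX3 it held 1 match, to the PU.1 motif, and none to the RUNX motif.
RUNX1: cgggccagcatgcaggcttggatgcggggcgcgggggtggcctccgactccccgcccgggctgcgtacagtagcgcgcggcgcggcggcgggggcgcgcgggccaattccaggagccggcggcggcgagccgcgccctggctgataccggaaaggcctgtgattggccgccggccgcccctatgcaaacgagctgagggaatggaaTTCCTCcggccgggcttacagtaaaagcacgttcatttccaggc
RUNX2: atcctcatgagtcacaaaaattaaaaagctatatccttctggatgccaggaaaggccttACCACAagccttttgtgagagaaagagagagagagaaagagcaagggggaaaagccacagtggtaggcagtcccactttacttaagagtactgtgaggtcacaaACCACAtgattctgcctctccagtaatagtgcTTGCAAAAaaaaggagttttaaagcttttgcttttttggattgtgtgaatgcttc
RUNX3: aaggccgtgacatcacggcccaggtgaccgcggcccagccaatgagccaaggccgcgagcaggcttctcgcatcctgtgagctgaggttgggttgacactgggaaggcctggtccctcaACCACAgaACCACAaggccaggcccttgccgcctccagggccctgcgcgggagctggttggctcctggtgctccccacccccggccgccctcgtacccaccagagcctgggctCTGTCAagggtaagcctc
ACCACA, the reverse complement of the RUNX motif TGTGGT, begins 191 and 87 bases before the start in RUNX2 and 131 and 123 bases before it in RUNX3. RUNX2 also holds TTGCAAAA, a match to the C/EBP motif TTGCNNAA, and RUNX3 holds CTGTCA, the reverse complement of the MEIS motif TGACAG. In the RUNX1 window TTCCTC, the reverse complement of the PU.1 motif GAGGAA, begins 44 bases before the start. Over both strands the RUNX motif was held by 10.98% of all windows and by 5 of the 15 windows of the factors. These belong to GFI1, IRF8, MEIS1, RUNX2 and RUNX3, of which RUNX2 rose and the other 4 fell. The PU.1 motif was held by 23.57% of all windows and by 3 of the 15 (GFI1, RUNX1 and RUNX3). The C/EBP motif was held by 9.05% and by 2 of the 15 (GFI1 and RUNX2). TGACAG was held by 13.03%, the MYB motif TAACNG by 17.63%, and the IRF motif, a direct repeat of GAAA, by 3.02% of all windows and by none of the 15. Matches did not overlap one another in the windows printed. The starts used in these cells are not known from the table.

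GFI1, a zinc-finger repressor that recruits the histone demethylase KDM1A, stood at 8037, 8260 and 9087 normalized counts in DMSO and at 2610, 2360 and 3256 in compound 28. The groups did not overlap, and compound 28 replicate 3 was the highest of its group. GFI1 fell 3.11-fold (log2 change -1.64, 95% interval -1.90 to -1.38, adjusted p = 7.7e-07, limma). Of its corepressors, RCOR1 fell (-1.76) and HDAC2 fell (-0.68), HDAC1 rose (0.94, but lower under mitochondrial scaling at -0.52), and KDM1A had a log2 change of -0.05 that did not pass. The relative GFI1B, an erythroid and platelet factor, had at most 6.29 normalized counts in any library.

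SPI1, IRF8 and MYB, the 3 most abundant per kilobase, had the smallest falls. SPI1 was at 10001, 8604 and 8539 normalized counts in DMSO and at 5046, 5235 and 5936 in compound 28 (log2 change -0.74, 95% interval -0.96 to -0.53, adjusted p = 5.2e-05, limma). IRF8 was at 17113, 17046 and 21255 and then at 12168, 11915 and 12363 (log2 change -0.60, 95% interval -0.82 to -0.37, adjusted p = 0.00033, limma), with DMSO replicate 3 above the other 2. MYB, the proto-oncogene of progenitor self-renewal, was at 16428, 16282 and 17912 and then at 11874, 11796 and 10518 (log2 change -0.57, 95% interval -0.76 to -0.37, adjusted p = 0.00018, limma). In each of the 3 genes the groups did not overlap, and 59.7% to 67.5% of the mean DMSO level was left in the authors' normalization. Their log2 changes were -1.02 to -1.20 with library sizes only and -2.02 to -2.20 with mitochondrial scaling. CEBPA over SPI1 per kilobase, a ratio of factors that compete over granulocytic and monocytic fate, was 0.0255, 0.0277 and 0.0283 in DMSO and 0.00984, 0.0102 and 0.0115 in compound 28 (2.58-fold lower, no overlap, exact permutation p = 0.1).

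**Figure D3:**
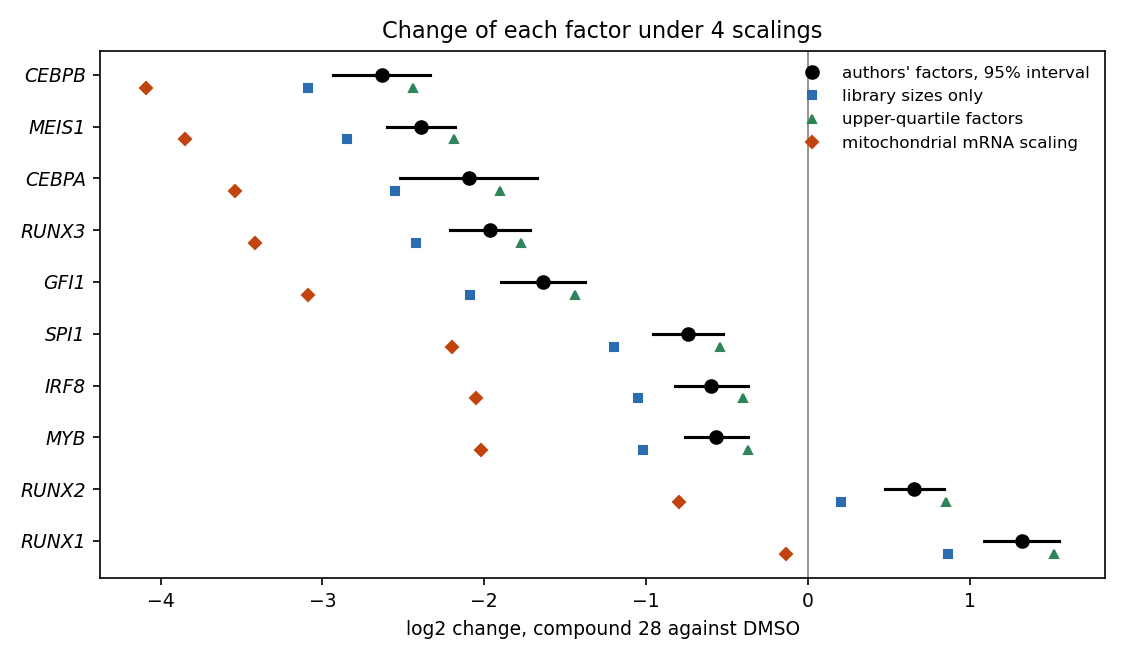
Log2 change of each factor in compound 28 against DMSO, with the 95% interval from limma for the authors' factors (black) and the estimates with library sizes only (blue), upper-quartile factors (green) and scaling on mitochondrially encoded mRNAs (red). Scaling shifts all genes alike, so the order from CEBPB to RUNX1 is kept, and RUNX1 and RUNX2 cross 0 only in red, at -0.14 and -0.80.

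Some of the directions above depend on the scaling. In the authors' normalization the median gene had a log2 change of -0.03; this median moved to -0.48 when only library sizes were used, to 0.16 under upper-quartile factors and to -1.47 under mitochondrial mRNA scaling. All genes then split into 4218 higher and 9302 lower with library sizes only and into 1810 and 13885 with mitochondrial scaling, against 6487 and 6813. The median of the 10 factors lay 1.16 below that of all genes in the authors' normalization (difference -1.16) and -1.15 to -1.17 away in the others. The 8 falls were called under each of the scalings tried. In the authors' deposited table the log2 changes of the 10 genes ran from -2.64 (CEBPB) to 1.32 (RUNX1), with the same directions.

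Relatives of the 10 within their gene families were tested for 23 of 26 genes, of which 4 rose, 16 fell and 3 did not pass (median log2 change -0.81), beside 35.5% and 37.3% of all genes higher and lower. CEBPD, a C/EBP gene of acute responses, fell from 2622, 2254 and 2485 to 215, 255 and 152 normalized counts (log2 change -3.59, adjusted p = 7.3e-08, limma), against -2.10 in CEBPA and -2.63 in CEBPB. CEBPE, a late granulocyte factor, had -3.19 and CEBPG, a dimer partner with weak activity of its own, had -0.81, so that all 5 C/EBP genes tested fell. IRF4, the relative nearest to IRF8, fell with a log2 change of -3.14, and ETS2 with -2.11. ETV6, an ETS repressor needed in blood stem cells and the relative with the highest mean CPM over the 6 libraries, rose from 4762, 4821 and 4983 to 11071, 10652 and 11311 normalized counts (log2 change 1.18, adjusted p = 3.9e-07, limma), but was lower with mitochondrial scaling (-0.28). ELF4 passed as higher (0.75), was not called with library sizes only (0.30) and was lower with mitochondrial scaling (-0.71). MYBL2, the relative of MYB that acts in the cell cycle, fell (-1.01), and MYBL1 did not pass (0.21, adjusted p = 0.19, limma).

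Partner and regulator genes were tested for 23 of 26, with 4 higher, 16 lower and 3 not called (median -0.71; all genes, 35.5% higher and 37.3% lower). DDIT3, a C/EBP relative that blocks C/EBP binding to classical sites, fell with a log2 change of -5.63, from 866, 862 and 740 to 23.5, 11.3 and 14.0 normalized counts (adjusted p = 6.6e-08, limma). TRIB1, a pseudokinase that sends C/EBPα protein for degradation, went from 175, 159 and 234 to 8.81, 2.52 and 1.55 (log2 change -5.40, adjusted p = 3.3e-06, limma). Both acetyltransferases that MYB recruits fell, CREBBP with -3.06 and EP300 with -0.90. HIPK2, a nuclear kinase that modifies RUNX1 and MYB, rose in each scaling, from 422, 449 and 643 to 2835, 2302 and 3090 normalized counts (log2 change 2.46, adjusted p = 5.2e-07, limma; 1.00 with mitochondrial scaling). ATF4, a C/EBP dimer partner in stress and the highest of this list by mean CPM, fell (-0.71).

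Other transcription factors of blood lineages were tested for 21 of 30, with 5 higher, 11 lower and 5 not called (median -0.31), where 35.5% of all genes were higher and 37.3% lower. NFE2, an erythroid and platelet factor, fell with a log2 change of -5.11, HLX, a myeloid homeobox gene, with -4.04, LYL1, a progenitor factor, with -2.59 and BCL11A with -1.95. MEF2C (0.73), TCF4 (0.67) and LDB1 (0.55) passed as higher in the authors' normalization, were not called with library sizes only (0.27, 0.22 and 0.10) and were lower with mitochondrial scaling (-0.73, -0.78 and -0.91). The 2 other rises were below 5 CPM and are named after their values were seen: EGR2, a zinc-finger factor of macrophages, was higher in each scaling (2.56; 1.27 with mitochondrial scaling), and TCF7, a T cell factor, had 1.62 and was not called with mitochondrial scaling (0.20). ZEB2, the highest by mean CPM, did not pass (-0.31, adjusted p = 0.066, limma). GATA2, TAL1, EBF1, LEF1, MAF, IKZF3 and BCL11B, which act in other lineages or stages, were among those that did not pass the filter on low counts.

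**Figure D4:**
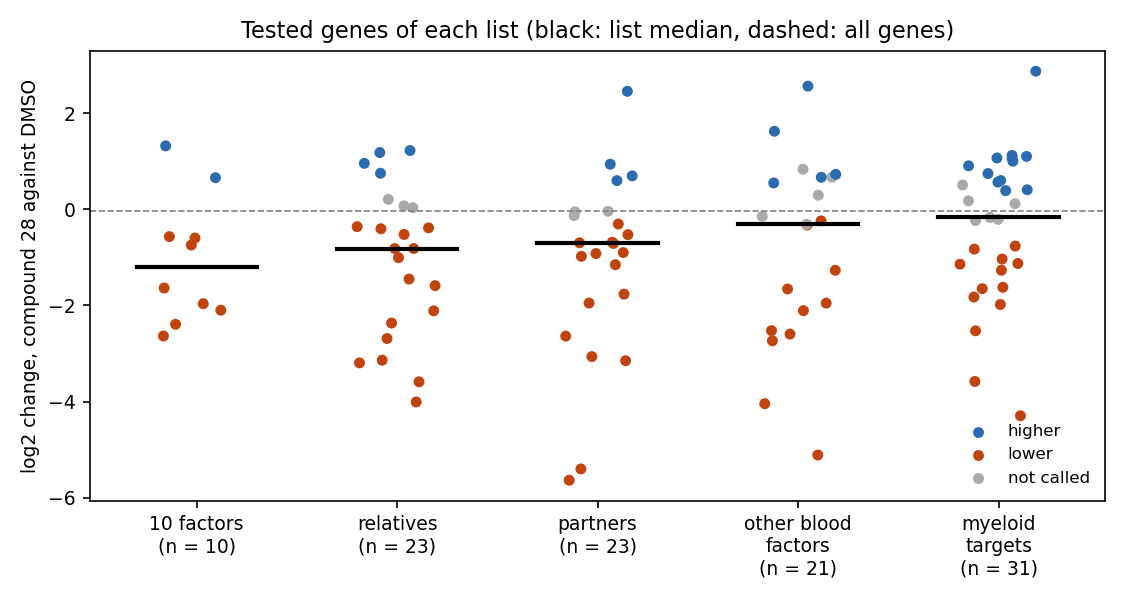
Log2 change of each tested gene of 5 lists in compound 28 against DMSO, coloured by call, with the list median (black bar) and the median of all genes (dashed line, -0.03). The medians run from -1.19 for the 10 factors through -0.81, -0.71 and -0.31 to -0.17 for the myeloid targets, whose points spread to both sides.

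Of 33 genes known as targets of these factors in myeloid cells 31 were tested, and 12 rose, 13 fell and 6 did not pass (median -0.17, and 0.03 with upper-quartile factors). These shares stand beside 35.5% higher and 37.3% lower of all genes. CD34 had no row, and CD68, a macrophage marker with at most 7.77 normalized counts in any library, did not pass the filter on low counts. The granule genes MPO, ELANE, PRTN3, AZU1 and CTSG, which these factors switch on in granulocyte progenitors, passed as higher in the authors' normalization, but ELANE and PRTN3 were not called with library sizes only (0.29 and -0.06), and none was higher under mitochondrial scaling. AZU1, the granule protein azurocidin and the highest target by mean CPM, went from 51415, 39001 and 35887 to 87975, 85991 and 86407 normalized counts (log2 change 1.06, adjusted p = 4.0e-05, limma), and CTSG, cathepsin G, had a log2 change of 1.12. ITGB2, the shared chain of leukocyte integrins, and LAPTM5, a lysosomal protein of blood cells, passed with 1.10 and 1.07. These 4 were higher also with library sizes only (0.61 to 0.67) and lower with mitochondrial scaling (-0.40 to -0.33). Receptor genes went both ways. Those that fell include TLR4 (-4.29), the GM-CSF receptor chain CSF2RA (-2.53), the Fc receptor FCGR1A (-1.98) and the M-CSF receptor CSF1R (-1.82). The G-CSF receptor CSF3R rose (0.91; lower with mitochondrial scaling at -0.55), as did CD14, a monocyte receptor for lipopolysaccharide, from 15.1, 16.8 and 18.1 to 109, 145 and 134 normalized counts (2.87, and higher in each scaling). CSF2RB, the shared chain of the GM-CSF receptor, and ITGAM, an integrin chain, passed as higher (0.41 and 0.57), were not called with library sizes only and were lower with mitochondrial scaling. MYC, a target of MYB, fell with a log2 change of -3.58. FLT3 (-0.17) and LYZ (0.51) did not pass. Lists were not tested as sets, and their members were chosen with earlier results of these data known.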

How the data were processed

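The submitters' processing notes name fastp, HISAT2, StringTie, SAMtools and HTSeq, and the builds GRCh37 and hg19, without versions or strand setting. From the values, the signal the authors deposited is each gene's reads over a size factor of its library: 100% of values above 0 were whole multiples of 1 step within 0.01 read. Their deposited log2 fold changes and p-values were used only where their table is named. The 5 HTSeq summary rows (30.4% to 32.8% of reads per DMSO library and 40.4% to 46.9% per compound 28 library) were left out. Because values are normalized, limma-trend (limma 3.58.1) was run on log2(value + 1), which understates changes of low genes, over the genes kept by filterByExpr (edgeR 4.0.16) on recovered reads. In data simulated for compound 28 against DMSO (18278 genes), 100% of the 100 genes changed by 1 log2 unit were recovered. There 9 unchanged genes were called. Recovery with most genes changed was not tested. Alternatives were DESeq2 1.42.0 and edgeR on recovered reads, other scalings, another pseudocount (0.5), other filters, a replicate block, and leaving out each library. The 10 genes and all lists were chosen with earlier results of these data known. Named were all 10 and, per list, the most abundant gene and up to 4 called rises and 4 falls by size, from 5 CPM; others were chosen after their values were seen. Exon lengths came from GENCODE 29 (GRCh38; 95.6% of symbols matched) and upstream sequences from RefSeq.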

Additional observations from a re-analysis of the deposited data

How the results depend on the processing

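Of 160 values (10 genes under 16 alternatives), 158 kept their direction and call. The other 2 were under scaling on mitochondrially encoded mRNAs, where RUNX1 had a log2 change of -0.14 and RUNX2 of -0.80, so that 0 of the 10 factors were called higher and 9 lower. Under the other 15 alternatives 2 were higher and 8 lower. Over all genes, 4218 were higher with library sizes only, 1810 with mitochondrial scaling, where 13885 were lower, and 3624 among the 10548 genes of at least 5 CPM, where fewer genes were tested. Leaving out each library in turn gave 6030 to 6511 higher and 6205 to 6654 lower genes. DESeq2 gave 6667 and 6464, and edgeR 6385 and 6893. With the replicate block 6511 and 6769 genes were called; deviations of same-numbered libraries correlated at -0.02, 0.04 and 0.07, not every library correlated best with its own number, and the numbers are not taken to pair the libraries. Depth limits CEBPA most, with 43 reads in its lowest library.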

Other observations

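RUNX1 and RUNX2, the 2 factors that rose in the authors' normalization, are the only 2 of the 10 whose span in GENCODE exceeds 200000 bases. Of the 892 tested genes with such a span, 49.4% were higher and 22.6% lower, with a median log2 change of 0.44. Of the 4017 genes spanning 50000 to 200000 bases, which include MEIS1 and RUNX3, 32.6% were higher and 38.4% lower (median -0.07). Of the 4033 genes spanning 20000 to 50000 bases, which include MYB, SPI1 and IRF8, 32.4% were higher and 42.5% lower (median -0.15). CEBPA and CEBPB, in which the span equals the exon length (2631 and 1956 bases), belong with GFI1 to the 8786 genes of at most 20000 bases, of which 36.8% were higher and 36.1% lower (median 0.01). These are counts in the authors' normalization, and the part of gene length in the change of any factor was not tested.

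For each factor the gene with the nearest pattern was sought among 8715 genes, as the smallest root mean square difference of centred log2 values over the 6 libraries. The genes searched were those at a mean of 10 CPM or more and the factors themselves. Symbols that begin with LINC, MT or an RP clone number, or that end in a dot and a number, were left out. Nearest to MYB was PISD (0.0200), to SPI1 FBXL19 (0.0306), to IRF8 CCDC82 (0.0285), to GFI1 TOR1A (0.0311), to MEIS1 ZNF671 (0.0350) and to RUNX3 PPP1CC (0.0562). Nearest to CEBPA was PLIN2 (0.0624), to CEBPB FIZ1 (0.0615), to RUNX1 RNF4 (0.0443) and to RUNX2 CTSH (0.0254). Among the 10 themselves, MYB and IRF8 were nearest to each other (0.0941), and so were CEBPB and MEIS1 (0.185). With 2 groups of libraries this likeness mostly says that the fold is alike.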
